A study of Mus musculus with 653 samples.

Results

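The 10 genes described here are markers of epithelial and biliary cells: the keratins *Krt7*, *Krt19*, *Krt8* and *Krt18*, the surface protein gene *Epcam*, the transcription factor gene *Sox9*, the secreted phosphoprotein gene *Spp1*, the tight junction genes *Cldn3* and *Cldn4*, and *Cdh1*, which encodes E-cadherin. They are a list of names set without a threshold on any measured value, and all 10 were present among the 54195 genes of the raw count table. Their reads were examined cell by cell in 653 single cells of the embryonic mouse liver, to ask which cells carried several of these genes at once, with or without reads of *Afp* (alpha-fetoprotein, a gene of hepatoblasts), at which stage, in which sort and in which library pool.

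Livers were taken at E10.5 or E13.5 (embryonic days) from embryos sired by male Lgr5-EGFP-IRES-creERT2 mice on C57BL/6, in which GFP is made from the *Lgr5* locus, in MF1 females, and embryos were screened for GFP before digestion. Cells were sorted with an antibody against Liv2, a surface antigen of hepatoblasts, and cells with CD31 (endothelial) or CD45 (haematopoietic) were gated out. Bulk cells were taken on these marks alone, and Lgr5-GFP+ cells were also positive for GFP. Of the cells, 414 were from E10.5 and 239 from E13.5, and 291 were Lgr5-GFP+ (80 of them from E13.5) and 362 bulk, which makes 4 groups, all untreated. Singlets were gated by pulse width in the sort.

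Hepatoblasts are the bipotent progenitors of the liver bud and give rise to hepatocytes and to the cholangiocytes that line bile ducts. *Krt8* and *Krt18* encode the partner keratins of simple epithelia and are made by hepatoblasts and hepatocytes as well as ducts, whereas *Krt7*, *Krt19*, *Sox9*, *Spp1* and *Epcam* are used as markers of the biliary lineage. None of them belongs to bile ducts alone: keratins are also made by the mesothelium that covers the liver, *Sox9* by several mesenchymal and endodermal progenitors, and claudins, *Epcam* and *Cdh1* by most polarised epithelia, gut included.

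A cell was counted as positive for a gene with more than 10 reads, and as co-expressing when at least 3 of the 10 genes were positive. Levels are in RPM: for a set of cells, the total reads of the gene per 1000000 reads on any gene. Each cell had between 463347 and 2279700 reads on genes (median 1192740), with group medians of 1092637 to 1260402. Cells carry the name of 1 of 5 library pools, and the labels tie none of them to an animal, a litter or a sorting session. Each group was therefore treated as a single sample, without replicates and without a test. Shares carry exact 95% Clopper-Pearson intervals and levels exact 95% Poisson intervals. A count of 0 is given with the limit that 3 cells would make. All of these cover counting error only, since reads had no molecular identifiers and cells of 1 sort are not replicates. No 2 cells had identical columns. Index pairs were reused between pools (230 of 365 pairs were found in more than 1 pool).

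Upstream sequences were available for 7 of the 10 genes in the RefSeq promoter table of GRCm38.p6. The 250 bases before the start of *Epcam*, *Cldn3* and *Cldn4* are shown because these 3 genes were found together in the same cells, and those of *Krt8* and *Krt18* because this was the pair shared by most cells. They read 5′ to 3′ on the strand of the gene. Capitals mark CAGGTG, the E-box bound by Snail-type repressors of epithelial genes, or CACCTG, the same E-box on the other strand.
Epcam (chr17:87635729-87635978, plus strand): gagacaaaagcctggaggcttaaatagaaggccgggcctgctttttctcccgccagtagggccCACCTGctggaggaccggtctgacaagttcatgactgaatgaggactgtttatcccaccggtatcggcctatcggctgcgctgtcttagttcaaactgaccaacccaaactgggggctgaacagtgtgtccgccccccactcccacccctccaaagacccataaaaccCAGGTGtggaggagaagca
Cldn3 (chr5:134985964-134986213, plus strand): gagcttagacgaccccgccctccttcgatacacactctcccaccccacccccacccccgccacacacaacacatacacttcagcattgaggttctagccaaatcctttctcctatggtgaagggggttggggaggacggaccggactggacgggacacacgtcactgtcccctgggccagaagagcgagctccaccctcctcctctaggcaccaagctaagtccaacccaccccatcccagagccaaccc
Cldn4 (chr5:134946935-134947184, minus strand): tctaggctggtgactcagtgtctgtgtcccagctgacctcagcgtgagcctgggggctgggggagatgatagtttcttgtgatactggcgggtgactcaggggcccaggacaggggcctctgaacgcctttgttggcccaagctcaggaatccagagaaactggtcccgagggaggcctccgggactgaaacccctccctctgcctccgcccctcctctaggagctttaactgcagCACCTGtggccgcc
Krt8 (chr15:102004343-102004592, minus strand): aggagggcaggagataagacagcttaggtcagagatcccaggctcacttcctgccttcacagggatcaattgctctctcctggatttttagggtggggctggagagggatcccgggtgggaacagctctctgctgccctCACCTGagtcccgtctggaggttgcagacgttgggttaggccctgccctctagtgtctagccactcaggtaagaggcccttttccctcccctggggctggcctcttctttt
Krt18 (chr15:102027966-102028215, plus strand): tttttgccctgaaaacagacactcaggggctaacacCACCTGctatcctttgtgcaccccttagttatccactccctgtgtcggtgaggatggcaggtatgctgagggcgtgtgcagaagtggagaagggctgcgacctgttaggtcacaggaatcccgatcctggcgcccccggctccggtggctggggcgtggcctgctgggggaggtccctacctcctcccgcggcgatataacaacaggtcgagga
The E-box was found 2 times before *Epcam*, 1 time before each of *Cldn4*, *Krt8*, *Krt18* and *Krt7*, 1 time in the first of 2 windows of *Spp1*, and not before *Cldn3*. Here the start is that of RefSeq. By the GENCODE gene bounds given below, the windows of *Krt8* and *Krt18* reach into the gene. The *Krt7* window and the second *Spp1* window lie inside it. The E-box was present in 17.2% of all 32817 promoter windows of this length. AACCNGTT, the letters of a Grainyhead-type site, or AACNGGTT on the other strand, was found in none of the windows of these genes and in 1.78% of all windows. GGGCGG, the letters of a GC box, or CCGCCC, was present before *Krt7*, *Epcam*, *Cldn3* and *Cldn4* but not before *Krt8* or *Krt18*, against 32.7% of all windows. None of these searches shares its letters with another. A match describes the letters only.

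On the GENCODE annotation of GRCm38, the type II keratins *Krt7* (chr15:101411043-101430313) and *Krt8* (chr15:101996698-102004482) lay on the same chromosome as the type I keratin *Krt18* (chr15:102028180-102032027), and *Krt8* ended 23698 bases before *Krt18* began. *Krt19* (chr11:100140810-100148665) and *Sox9* (chr11:112782224-112787760) were on chromosome 11. *Cldn4* (chr5:134945119-134946934) and *Cldn3* (chr5:134986214-134987472) were neighbours, separated by 39280 bases, and *Spp1* (chr5:104435118-104441050) lay further away on the same chromosome. *Epcam* was at chr17:87635979-87651129 and *Cdh1* at chr8:106603351-106670246. Reads were counted over the exons of each gene. Of the 50-base windows of *Krt8* transcripts, 29.7% were also present in transcripts of other genes, mainly the pseudogene *Krt8-ps*, which was listed at 0 in every cell, so the level of *Krt8* is less certain than the others. For *Krt7*, *Krt19*, *Krt18*, *Epcam*, *Sox9*, *Cldn3*, *Cldn4* and *Cdh1* this share was at most 0.916%. The exons of *Krt8*, *Krt7*, *Spp1* and *Cldn3* overlapped those of *Gm36026*, *Gm671*, *Gm42793* and *Wbscr25*. These 4 overlapping genes were positive in 3, 1, 0 and 2 cells, and the library preparation does not keep the strand.

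*Krt18*, *Sox9* and *Krt8* were the members seen in many cells. *Krt18* was positive in 24.3% of the 653 cells (95% interval 21.1 to 27.8), with a median of 512 reads in the positive cells and at most 4546. *Krt8* was positive in 19.1% (16.2 to 22.4), with a median of 249 reads and at most 1746. Per kilobase of exon the level of *Krt18* over all cells was 105.5 RPKM (reads per kilobase per 1000000 reads) and that of *Krt8* was 27.3 RPKM. *Sox9* was positive in 21.9% (18.8 to 25.3), with at most 3726 reads and 18.7 RPKM over all cells.

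The other members were restricted to few cells. *Epcam* was positive in 47 cells (7.20%, 5.34 to 9.46), *Krt19* in 32 (4.90%, 3.38 to 6.85), *Krt7* in 26 (3.98%, 2.62 to 5.78) and *Cdh1* in 23 (3.52%, 2.25 to 5.24). *Cldn3* and *Cldn4* were positive in 15 cells each (2.30%, 1.29 to 3.76). *Spp1*, which encodes osteopontin, was found in 2 cells, with 68 and 97 reads, and was listed at 0 in all others. Many cells had only 1 to 10 reads and were not counted as positive. These were 30 of 56 cells with any read for *Krt7*, 28 of 60 for *Krt19* and 48 of 95 for *Epcam*. For *Cldn4* they were 20 of 35, for *Cldn3* 7 of 22 and for *Cdh1* 248 of 271. The median number of reads in positive cells was 315 for *Krt7*, 189.5 for *Krt19*, 170 for *Epcam*, 324 for *Cldn4* and 110 for *Cdh1*.

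Counts of 1 to 10 reads were not counted as positive, and whether they are background was not tested. *Cdh1* had 1 to 10 reads in 61 of the cells with at least 3 positive genes of a list of erythroid genes (35.3% of them) and in 38.96% of the other 480 cells. More than 10 *Cdh1* reads were found in 0 and 23 cells of these classes. *Krt18* had 1 to 10 reads in 27.7% of the erythroid-list cells and 25.4% of the others, and *Afp* in 14.5% and 29.8%. Shares were also close for *Krt7* (4.62% and 4.58%), *Krt8* (13.3% and 12.3%) and *Cldn4* (2.89% and 3.13%). In erythroid-list cells they were lower for *Epcam* (3.47% against 8.75%), *Krt19* (2.31% against 5%), *Sox9* (12.7% against 17.3%) and *Cldn3* (0.578% against 1.25%). The median depths were 1112603 and 1226210 reads. Cells with 1 to 10 *Afp* reads are given as a class of their own.

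By stage and sort, 9 of the 10 genes had their highest share of positive cells in E10.5 Lgr5-GFP+ cells, and *Spp1* had 1 positive cell in each E10.5 sort. How many of all genes were highest in that group was not computed. The median number of genes detected per cell was also highest there, at 6120. It was 5490 in E10.5 bulk, 5546 in E13.5 bulk and 5035 in E13.5 Lgr5-GFP+ cells, and its part in these shares was not tested. *Krt18* was positive in 97 E10.5 Lgr5-GFP+ cells (45.97%, 39.1 to 52.9) and in 54 bulk cells of that stage (26.6%, 20.7 to 33.2). At E13.5 it was positive in 6 bulk cells (3.77%, 1.40 to 8.03) and 2 Lgr5-GFP+ cells (2.50%, 0.304 to 8.74). *Krt8* followed the same order at E10.5, with 81 cells (38.4%, 31.8 to 45.3) against 40 (19.7%, 14.5 to 25.9), and had 2 positive cells in each E13.5 sort. For both keratins, the intervals of the 2 E10.5 sorts did not overlap each other or those of E13.5.

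Of the genes used as biliary markers, *Sox9* was positive in 93 E10.5 Lgr5-GFP+ cells (44.1%, 37.3 to 51.1), 44 E10.5 bulk cells (21.7%, 16.2 to 27.98) and 6 E13.5 Lgr5-GFP+ cells (7.50%, 2.80 to 15.6). It was positive in 0 bulk cells of E13.5, which allows a share of up to 1.89% (the exact interval reaches 2.29%). *Krt19* was positive in 21 E10.5 Lgr5-GFP+ cells (9.95%, 6.27 to 14.8) and 10 E10.5 bulk cells (4.93%, 2.39 to 8.87), and *Krt7* in 18 (8.53%, 5.13 to 13.1) and 8 (3.94%, 1.72 to 7.62). For these 2 ductal keratins the intervals of the sorts overlapped. *Krt7* was positive in no E13.5 cell, and *Krt19* in 1, an Lgr5-GFP+ cell of pool 2.

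The surface and junction genes were more unequal between the sorts of E10.5. *Cdh1* was positive in 21 Lgr5-GFP+ cells (9.95%, 6.27 to 14.8) and 1 bulk cell (0.493%, 0.0125 to 2.71). *Cldn3* was positive in 13 (6.16%, 3.32 to 10.3) and 1, and *Cldn4* in 12 (5.69%, 2.97 to 9.72) and 1. *Epcam* was positive in 35 (16.6%, 11.8 to 22.3) and 10 (4.93%, 2.39 to 8.87). For *Cdh1*, *Cldn3*, *Cldn4* and *Epcam* the intervals of the 2 sorts were apart, as they were for *Krt8*, *Krt18* and *Sox9*. The share of all genes with intervals apart was not computed, so whether this is particular to these genes is not known.

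**Figure D1:**
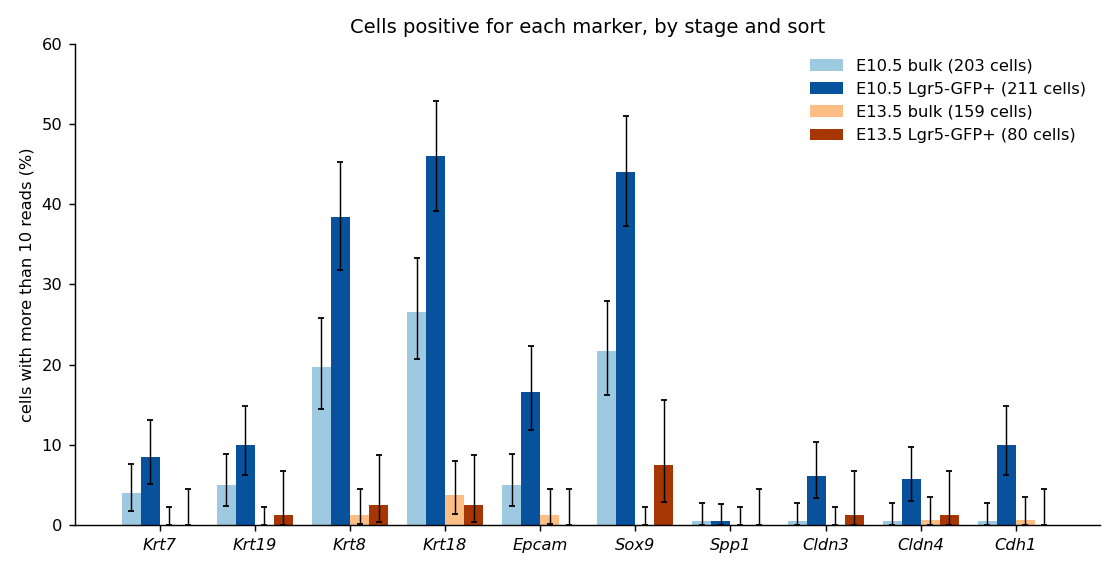
Share of cells with more than 10 reads (y axis, percent) for each of the 10 genes (x axis) in the 4 groups, with exact 95% intervals that cover counting error only. All genes but *Spp1* are highest in E10.5 Lgr5-GFP+ cells, at 45.97% for *Krt18* and 44.1% for *Sox9*, and 7.50% for *Sox9* is the highest value at E13.5.

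Summed levels at E10.5 separated these genes further. *Cldn3* was at 15.1 RPM (14.7 to 15.6) in Lgr5-GFP+ cells and 0.624 RPM (0.531 to 0.730) in bulk cells, a 24.3-fold difference. *Cdh1* was 22.7-fold higher in Lgr5-GFP+ cells (18.1 against 0.798 RPM), *Cldn4* 18.2-fold (24.1 against 1.32 RPM) and *Epcam* 5.50-fold (76.9 against 13.98 RPM). *Krt8*, *Krt18*, *Krt7*, *Krt19* and *Sox9* differed by less than 2-fold, from 1.12-fold for *Sox9* to 1.87-fold for *Krt19*. So 4 of the 9 members with at least 1 RPM were at least 2-fold higher in Lgr5-GFP+ cells and 0 were 2-fold lower, beside 14.2% and 13.2% of all 14284 genes tested. Their order was not the same in every pool. With sums of 0 set to 3 reads, the log2 ratio of Lgr5-GFP+ to bulk was above 0 in each of 5 pools for *Cdh1* (0.36 to 7.44) and each of 3 pools with reads for *Cldn3* (3.97 to 8.39), and spanned 0 for *Krt19* (-8.94 to 5.38), *Krt7* (-1.96 to 2.92), *Krt18* (-1.60 to 1.86), *Sox9* (-1.22 to 1.20), *Epcam* (-2.45 to 9.03), *Cldn4* (-6.85 to 9.17) and *Krt8* (-0.34 to 2.03).

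At E13.5 the members were nearly silent, and single cells carried what was left. Only 20 of the 239 E13.5 cells were positive for any member, against 246 of 414 at E10.5. In bulk cells *Sox9* was 986-fold lower at E13.5 than at E10.5 (0.107 against 105.7 RPM), *Krt7* 511.2-fold (0.0395 against 20.2 RPM), *Krt8* 85.8-fold (0.677 against 58.1 RPM), *Krt18* 43.4-fold (4.11 against 178.2 RPM) and *Epcam* 12.4-fold (1.13 against 13.98 RPM). Altogether 6 of the 8 members tested in bulk cells were at least 2-fold lower and 1, *Cdh1*, was higher, beside 35.9% and 13.7% of all genes. In Lgr5-GFP+ cells all 9 members tested were at least 2-fold lower at E13.5 and 0 were higher, beside 27.8% and 22.3%, from 3.66-fold for *Sox9* to 648-fold for *Krt7*. Within single pools this log2 ratio of E13.5 to E10.5 reached 6.06 for *Krt19*, 1.68 for *Krt18* and 1.16 for *Sox9*. For the other members tested it was below 0 in each pool with a ratio.

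The E13.5 levels that remained came from very few cells. In Lgr5-GFP+ cells, 1 cell with 3163 reads held 96.3% of the *Krt18* reads, and *Sox9* was carried by 6 cells with 29 to 1900 reads. Of these 6 cells, 3 had at least 3 positive genes of the mesenchyme list, and 0 had more than 10 *Afp* reads. In bulk cells, 1 cell with 569 *Cdh1* reads held 88.5% of the *Cdh1* reads and 1 cell with 341 reads held 99.1% of those of *Cldn4*. These 2 cells had 4 and 3 positive leukocyte-list genes. Between the E13.5 sorts, 2 of the 4 members tested were at least 2-fold higher in Lgr5-GFP+ cells, *Krt18* and *Sox9*, and 1, *Cdh1*, was lower, beside 36.6% and 21.9% of all genes. The cell mixture also differed between stages: within pools 3 to 5, at least 3 erythroid-list genes were positive in 15.5% of E10.5 and 64.1% of E13.5 cells. The part of this in the stage difference was not tested.

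Most cells carried none of the genes. No member was positive in 387 cells, at least 1 in 266, exactly 2 in 65 and at least 3 in 77 (11.8%, 9.42 to 14.5). Among the 77 co-expressing cells, 59 were E10.5 Lgr5-GFP+ (27.96% of that group, 22.02 to 34.5), 17 were E10.5 bulk (8.37%, 4.95 to 13.1) and 1 was E13.5 Lgr5-GFP+ (1.25%, 0.0316 to 6.77). The E13.5 bulk sort held 0, which allows up to 1.89%. All 14 cells with at least 6 positive members were E10.5 Lgr5-GFP+ cells, and 1 of them was positive for all 10.

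Among the pairs of genes, *Krt8* and *Krt18* shared the most cells. Both were positive in 99 cells, 79.2% of the *Krt8* cells and 62.3% of the *Krt18* cells. Most positive cells of the rarer keratins were positive for *Krt8*, at 30 of 32 *Krt19* cells and 23 of 26 *Krt7* cells. For *Krt18*, counted separately, these numbers were also 30 and 23. *Krt7* and *Krt19* shared 15 cells, 57.7% of the *Krt7* cells and 46.9% of the *Krt19* cells. The claudin neighbours *Cldn3* and *Cldn4* shared 11 of 15 cells each, and *Epcam* was positive in 12 and 13 of these 15. *Sox9* was the member most often alone. It was the only positive member in 72 cells, 68 of them from E10.5, and 56 of those 72 had at least 3 positive genes of the mesenchyme list. Over all E10.5 cells this share was 36.6% in pools 1 and 2 and 57.7% in pools 3 to 5.

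**Figure D2:**
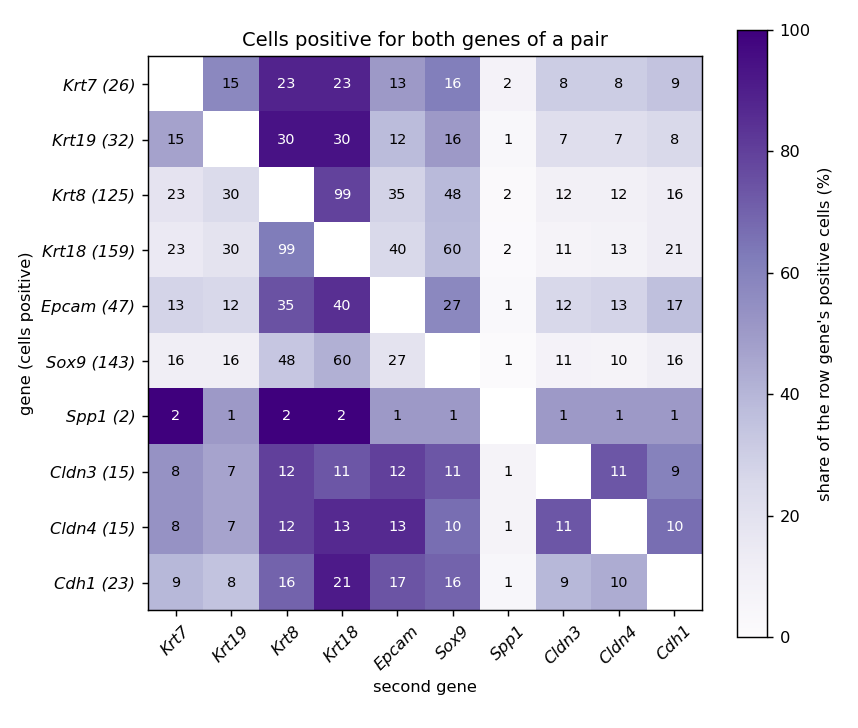
Number of cells positive for both genes of each pair (number in the square), with the colour giving that number as a share of the positive cells of the row gene in percent. *Krt8* and *Krt18* share 99 cells, while *Sox9* shares 16 with *Krt7* and 16 with *Krt19*.

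The genes whose levels across all 653 cells were most like a member were named at a Pearson correlation of log2(RPM + 1) of at least 0.5, among 11516 genes positive in at least 20 cells. These correlations are descriptions over cells that share libraries and stage. *Krt8* and *Krt18* were most like each other (r = 0.67), followed for *Krt8* by *Myrf* (0.53) and for *Krt18* by *Bex1* (0.55) and *Myrf* (0.51). *Krt7* and *Krt19* were both most like *Upk3b*, a uroplakin gene of mesothelium and urothelium (0.54 and 0.52). *Epcam* was most like *Cldn6* (0.74), *Spint1* (0.64) and *Cldn7* (0.62), and *Cdh1* was most like the same genes in another order, *Spint1* (0.60), *Cldn6* (0.59) and *Cldn7* (0.53). *Cldn6* and *Cldn7* encode claudins and *Spint1* an inhibitor of membrane serine proteases. No gene reached 0.5 for *Sox9*, where *Nrep* was highest (0.43).

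*Afp* reads divided the members. More than 10 *Afp* reads were found in 66 cells (55 of them E10.5 Lgr5-GFP+), 0 in 419 and 1 to 10 in the rest. *Krt18* was positive in 49 of the 66 *Afp* cells (74.2%, 61.99 to 84.2), and *Krt8* in 41 (62.1%, 49.3 to 73.8). With 10 *Afp* reads or fewer these shares were 18.7% (15.7 to 22.1) and 14.3% (11.6 to 17.4) of 587 cells. *Epcam* was positive in 16 *Afp* cells (24.2%, 14.5 to 36.4) against 31 (5.28%, 3.62 to 7.41), and *Cdh1* in 6 (9.09%, 3.41 to 18.7) against 17 (2.90%, 1.70 to 4.60). *Sox9* did not separate the classes, at 24.2% (14.5 to 36.4) and 21.6% (18.4 to 25.2). Within E10.5 cells the shares with and without *Afp* were 77.8% and 29.1% for *Krt18* and 61.9% and 23.4% for *Krt8*. They were 23.8% and 8.55% for *Epcam*, 9.52% and 4.56% for *Cdh1* and 25.4% and 34.5% for *Sox9*.

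For the ductal keratins the intervals of the shares overlapped between the classes. *Krt19* was positive in 3 of 66 *Afp* cells (4.55%, 0.947 to 12.7) and in 29 of the other 587 (4.94%, 3.33 to 7.02), and *Krt7* in 1 (1.52%, 0.0384 to 8.16) and 25 (4.26%, 2.77 to 6.22). In the *Afp* cells *Krt19* had 19, 26 and 87 reads and *Krt7* had 685. Both were positive in 0 *Afp* cells, which allows a share of up to 4.55%, and in 15 other cells. *Spp1* had 0 reads in all 66, and *Cldn3* and *Cldn4* were each positive in 1, in different cells.

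In summed levels, *Krt18* was 5.50-fold higher in the *Afp* cells (566 against 102.8 RPM) and *Krt8* 3.69-fold (153.6 against 41.7 RPM). *Krt19* was 8.76-fold lower (1.69 against 14.8 RPM), *Cldn3* 2.93-fold (1.98 against 5.81 RPM), *Cldn4* 2.38-fold (4.03 against 9.60 RPM) and *Sox9* 2.03-fold (40.2 against 81.7 RPM). *Krt7* (log2 ratio -0.98), *Epcam* (0.85) and *Cdh1* (0.76) lay within 2-fold. That is 2 of 9 members tested at least 2-fold higher and 4 lower, beside 11.1% and 35.1% of all 14573 genes, and the median log2 ratio of all genes was -0.40. Within E10.5 cells 2 members were higher and 5 lower, beside 12% and 35.3%. There *Krt18* was 3.76-fold and *Krt8* 2.36-fold higher, and *Krt19* was 13.4-fold and *Krt7* 3.07-fold lower.

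These counts depended on single pools. Pool 2 held 34 of the 63 *Afp* cells of E10.5. Without it the share of co-expressing *Afp* cells was 53.1%, 4 members were at least 2-fold higher (*Epcam* and *Cdh1* in addition) and 2 lower, and the log2 ratio of *Krt7* was -7.00. Without pool 5, 4 members were also higher, and the log2 ratio of *Cdh1* was -0.41 without pool 3. Without pool 3 the ratio of *Cldn4* was above 0 (log2 0.53). *Krt8* and *Krt18* stayed at least 2-fold higher and *Krt19* at least 2-fold lower without each pool in turn. The shares of all genes without each pool were not computed.

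Cells with 1 to 10 *Afp* reads were not intermediate for every gene. *Epcam* was at 9.71 RPM in cells with 0 *Afp* reads, 70.96 RPM with 1 to 10 and 50.5 RPM with more than 10, and *Cldn4* was at 4.06, 22.7 and 4.03 RPM. *Krt18*, by contrast, was at 92.6, 126.8 and 566 RPM. Co-expressing cells made up 6.92% (4.68 to 9.79), 16.1% (10.9 to 22.5) and 31.8% (20.9 to 44.4) of the 3 classes.

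The 77 co-expressing cells are described below in 3 sets. The first holds the 21 cells with more than 10 *Afp* reads. The other 56 cells were divided after their values had been seen, by the 4 genes of the cell surface and junctions (*Epcam*, *Cldn3*, *Cldn4*, *Cdh1*): 17 cells positive for at least 2 of them form the junction set, and 39 cells with fewer form the keratin set. Because the sets were cut from the members' own reads, the members' values in them are descriptions. What the other genes show was not used to form them. The names are labels only: *Krt18* was positive in 20 of 21 cells of the *Afp* set, 15 of 17 junction cells and 38 of 39 keratin cells.

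In the *Afp* set, *Krt8* and *Krt18* were each positive in 20 of 21 cells, *Epcam* and *Sox9* in 12 each and *Cdh1* in 6. Cells had 3 to 6 positive members (median 3), and *Afp* had 22 to 10100 reads (median 2518). *Krt7* was positive in 1 cell and *Krt19* in 3. All 21 cells had at least 3 positive genes of the 12 hepatoblast genes, *Afp* included (median 10), led by *Dlk1* in 21 cells (also positive in 35 keratin cells, 5 junction cells and 267 of the 576 other cells), *Apoa2* and *Fgb* in 19 each, and *Alb* and *Serpina6* in 17. Of the endoderm list, the early liver factor gene *Hhex* was positive in 17 and *Foxa2* in 13. None had 3 mesothelium genes.

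In the junction set, *Epcam* was positive in 16 of 17 cells, *Krt18* in 15, *Sox9* and *Cdh1* in 14, *Krt8* and *Cldn4* in 13, *Cldn3* in 12, *Krt7* in 9 and *Krt19* in 8. Cells had 3 to 10 positive members (median 7) and 0 to 5 *Afp* reads. Of the hepatoblast list, *Alb*, *Hnf4a*, *Fgb* and *Serpina6* were positive in 0 of 17 cells, *Dlk1* in 5 and *Apoa1* in 3, and 1 cell had at least 3 list genes. Genes of gut and foregut endoderm were present in part of the set: *Isl1* in 7 cells, *Foxa1* in 6, *Foxa2* and the ligand gene *Shh* in 5 each and *Nkx2-1* in 3. *Isl1* was also positive in 10 of 39 keratin cells and 24 other cells. *Pdx1* and *Cdx2* were positive in 0. At least 3 genes of this 10-gene list were positive in 6 junction cells, 6 cells of the *Afp* set and 0 keratin cells. The highest number of members was found in 1 cell of pool 5 with 532243 reads, where all 10 were positive: *Krt18* had 1011 reads, *Epcam* 417, *Krt7* 285, *Krt8* 247, *Spp1* 68, *Krt19* 59, *Cdh1* 58 and *Sox9* 41, with 1 *Afp* read. It was also positive for 17 of the 26 other epithelial genes.

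In the keratin set, *Krt18* was positive in 38 of 39 cells and *Krt8* in 34. *Sox9* was positive in 24, *Krt19* in 18, *Krt7* in 14 and *Epcam* in 10, and *Cldn4* in 0. Cells had 3 to 6 positive members (median 3) and 0 to 5 *Afp* reads. At least 3 of the 10 mesothelium genes were positive in 25 cells (64.1%, 47.2 to 78.8), against 4 junction cells and 0 *Afp* cells. *Alcam* was positive in 28 keratin cells, *Podxl* in 27, the mesothelial transcription factor gene *Wt1* in 20, *Upk3b* in 19, the R-spondin gene *Rspo1* in 18 and the retinoic acid enzyme gene *Aldh1a2* in 15. *Alcam* and *Podxl* were also positive in 10 and 7 cells of the *Afp* set and in 8 junction cells each. Of the 576 cells outside the sets, 20.3% were positive for *Alcam*, 19.1% for *Podxl*, 7.12% for *Wt1* and 1.04% for *Upk3b*. The summed level of the list ran from 0.482 to 6658 RPM per cell (median 1206) in the keratin set, from 0 to 1091 (median 147.9) in the junction set and from 1.02 to 418 (median 76.6) in the *Afp* set, and *Msln* was listed at 0 in all cells. At least 3 mesenchyme genes were positive in 34 keratin cells (87.2%, 72.6 to 95.7), 1 junction cell and 1 *Afp* cell. Over all E10.5 cells of pools 3 to 5, the shares were 57.7% for the mesenchyme list and 18.4% for the mesothelium list. The summed level of the mesenchyme list per cell ran from 5.25 to 76888 RPM (median 1702), from 0 to 1035 (6.00) and from 1.31 to 318 (7.21) in the 3 sets, with *Foxf1* and *Tcf21* listed at 0. *Col3a1*, *Col1a2* and *Col1a1*, the fibrillar collagen genes, led it, in 36, 35 and 34 of the 56 cells without *Afp*. The part of these genes in the keratin pattern was not tested.

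**Figure D3:**
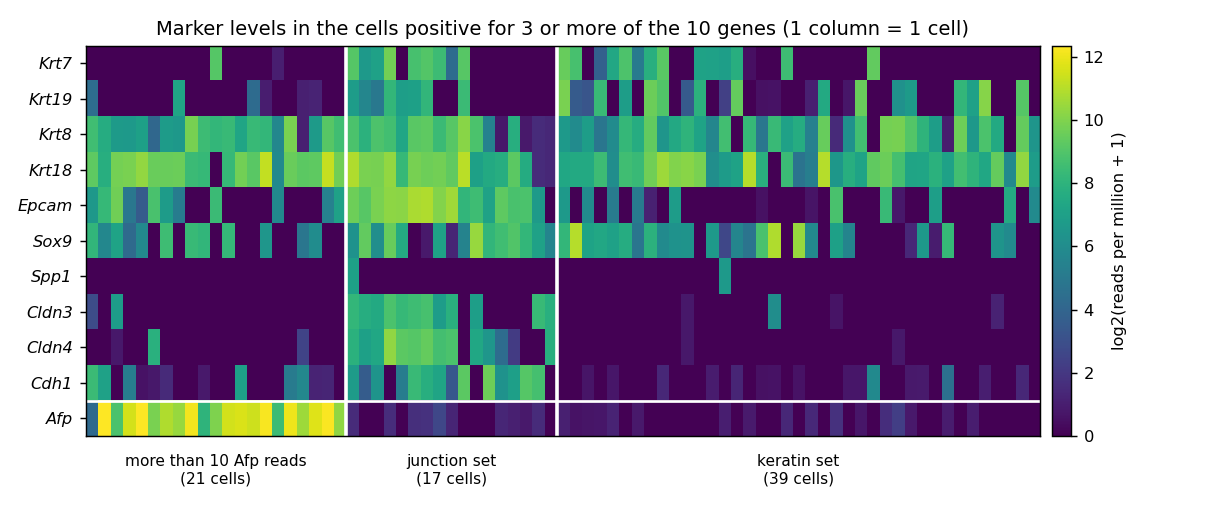
Level of each of the 10 genes and of *Afp* (rows, log2 of RPM + 1) in the 77 co-expressing cells (columns), in the 3 sets and ordered by the number of positive members within each. *Cldn3*, *Cldn4* and *Cdh1* fill the junction set and are nearly dark in the keratin set, *Krt7* and *Krt19* appear in both, and *Krt7* is positive in 1 of the 21 *Afp* cells.

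Of the 43 cells positive for *Krt7* or *Krt19*, 26 had at least 3 mesothelium genes (60.5%), beside 6.89% of all 653 cells, and 4 had more than 10 *Afp* reads. At least 3 hepatoblast genes were positive in 5 of them (11.6%), near the 10.7% of all cells. Of the *Sox9* cells, 95 had at least 3 mesenchyme genes (66.4%, beside 34.2% of all cells) and 16 at least 3 hepatoblast genes (11.2%). Nearly all of these keratin and *Sox9* cells were from E10.5. Within E10.5, at least 3 mesenchyme genes were positive in 36.6% of cells of pools 1 and 2 and 57.7% of pools 3 to 5. For the mesothelium list these shares were 0% and 18.4%. The part of stage and pool was not tested. *Krt8* or *Krt18* were positive in 57 of the 70 cells with at least 3 hepatoblast genes. Of the 77 co-expressing cells, at least 3 endothelium genes were positive in 1, at least 3 leukocyte genes in 0 and at least 3 erythroid genes in 1, beside 34 cells, 24 cells and 26.5% of the cells over all 653.

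The other epithelial genes, a list of 26 that holds no member, followed the junction set. At least 3 were positive in 16 of 17 junction cells (median 12 genes), 16 of 21 *Afp* cells (median 5) and 17 of 39 keratin cells (median 2). *Cldn6* and *Cldn7* were each positive in 16 junction cells, *Spint2* in 15, *Spint1* in 13, the polarity gene *Crb3* in 12, and *Grhl2*, a Grainyhead-like factor gene, in 11. In the keratin set *Spint2* was positive in 19 cells, *Lsr* in 16 and *Pard6b* in 13, while *Grhl2*, *Cldn6* and *Cldn7* were positive in 1 each. In the *Afp* set *Spint2* led with 18 cells, followed by *Dsp* (12) and *Marveld2* (11), and *Grhl2* was positive in 0. Within E10.5 cells, 9 of the 21 list genes tested were at least 2-fold higher with more than 10 *Afp* reads and 4 lower, beside 12% and 35.3% of all genes. Over all cells, which mixes the stages, 13 of the 22 list genes tested were at least 2-fold higher and 5 lower. Of all genes tested, 11.1% were higher and 35.1% lower. *Elf3* was listed at 0 in all cells.

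**Figure D4:**
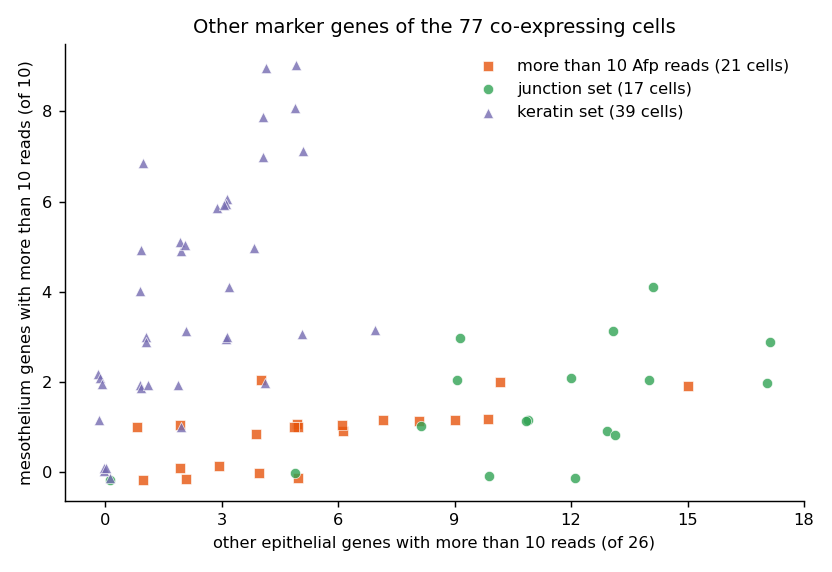
Number of other epithelial genes (x axis, of 26) and of mesothelium genes (y axis, of 10) with more than 10 reads in each of the 77 co-expressing cells, with points moved slightly to separate them and colours for the 3 sets. Keratin cells reach 9 mesothelium genes with at most 7 epithelial genes, junction cells reach 17 epithelial genes with at most 4 mesothelium genes, and *Afp* cells have at most 2 mesothelium genes.

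The 20 other biliary genes did not single out any of the sets. At least 3 were positive in 20 of 21 *Afp* cells, 17 of 17 junction cells and 39 of 39 keratin cells, but also in 416 of the 576 remaining cells (72.2%). *Pkhd1*, a gene of ductal cilia, was positive in 20, 17 and 37 cells of the sets, but also in 561 of the 576 remaining cells. *Cd24a* was positive in 17, 16 and 35 cells of the sets and in 322 of the remaining cells. The Notch ligand gene *Jag1* was positive in 0 *Afp* cells, 14 junction cells and 17 keratin cells. *Onecut2* was positive in 18, 4 and 4. *Mmp7* was listed at 0, and *Sctr* was positive in 0 cells of the sets. Within E10.5 cells, 3 of 17 biliary genes tested were at least 2-fold higher with more than 10 *Afp* reads and 9 lower, beside 12% and 35.3% of all genes. Over all cells, which mixes the stages, 4 of 16 biliary genes tested were at least 2-fold higher and 7 lower. Of all genes tested, 11.1% were higher and 35.1% lower.

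The number of co-expressing cells differed between pools. Of the 56 co-expressing cells without *Afp*, 55 were in pools 3, 4 and 5, and 1 was in pool 1, although each pool held 75 to 88 E10.5 cells. In E10.5 Lgr5-GFP+ cells the share of co-expressing cells was 4.44% in pool 1 and 8.51% in pool 2, and 47.5%, 41.5% and 44.7% in pools 3 to 5. In E10.5 bulk cells it was 2.38% and 0%, then 17.1%, 7.14% and 16.2%. Within each pool the Lgr5-GFP+ share was the higher of the 2. Depth was alike, with medians of 1228386 reads in the E10.5 cells of pools 1 and 2 and 1266186 in pools 3 to 5, but the median number of genes detected was 4573 and 6803. The lowest number of genes in a cell was 3219 and 5004. The authors had removed cells below a limit on genes detected that differed between sorts, and its part in this difference was not tested. At least 3 mesothelium genes were positive in 0 E10.5 cells of pools 1 and 2 and in 44 of 239 of pools 3 to 5. *Cldn3* was positive in 0 and 14, *Cdh1* in 1 and 21 and *Krt7* in 2 and 24. At least 3 hepatoblast genes, in contrast, were positive in 38 and 28. Each pool held cells of all 4 groups, but no label ties a pool to a sorting session or litter, so these cannot be told apart.

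**Figure D5:**
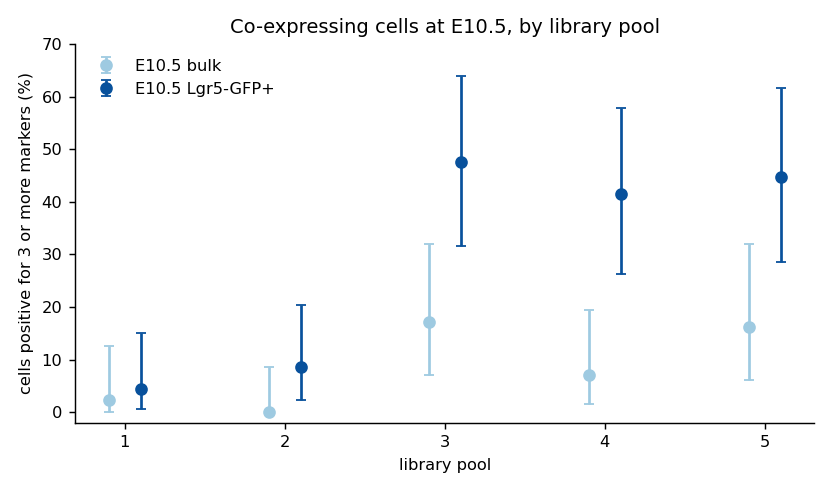
Share of E10.5 cells positive for at least 3 of the 10 genes (y axis, percent) in each of the 5 library pools (x axis), for bulk and Lgr5-GFP+ cells, with exact 95% intervals. Lgr5-GFP+ cells lie at 4.44% and 8.51% in pools 1 and 2 and between 41.5% and 47.5% in pools 3 to 5, above bulk cells in each pool.

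*Lgr5* itself had more than 10 reads in 11 of 21 *Afp* cells, 8 of 17 junction cells and 5 of 39 keratin cells, at 72.3, 203.8 and 25.9 RPM. *Car2* and *Cd44*, which encode a carbonic anhydrase and a hyaluronan receptor, were both positive in all but 528 cells. Of the cells with both, 1 was co-expressing (0.8%, 0.0203 to 4.38), and the members summed to 38.4 RPM. At least 3 erythroid genes were positive in 87.2% of them and in 64 of the others (12.1%), and the part of this in the difference was not tested. Of the other 528 cells, 76 were co-expressing (14.4%, 11.5 to 17.7), with 436 RPM.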

How the data were processed

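Single cells were sequenced by Smart-seq2 with single-end reads. The authors aligned reads to GRCm38.p6 with STAR (2.6.0c) and counted them per gene with featureCounts of Subread (1.6.2), versions per the submitters' processing notes. Only uniquely aligned reads were counted, and the authors had removed cells by mitochondrial share, spike-in share, reads and genes detected, the last with a limit set per sort. The deposited table holds these raw counts for 54195 genes, of which 54042 were named. The authors' normalised table was not used. Each cell was assigned to its stage, sort and pool by its label, and 0 columns were left out. All 653 cells were kept, and no doublet caller was run.

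Reads were summed over cells and given per 1000000 reads on all genes, or per kilobase of the union of exons (GENCODE M21). Each group was 1 sample, so no test was run. A gene entered a comparison at 1 RPM or more over both groups of cells and was called at 2-fold. Sums of 0 were set to 3 reads. Members and gene lists were chosen with earlier results of these data known. Named genes were the members, *Afp*, *Car2*, *Cd44*, the list genes positive in most co-expressing cells with and without *Afp* (4 per list), and the 3 genes most like each member at r of 0.5 or more. Other list genes were named after their values were seen. Alternatives were other read limits, other numbers of members, thinning to 100000 reads (seed 1) and leaving out pools. The summing step was tested on simulated data. Python 3.11.15, pandas 2.3.3 numpy 2.4.6, scipy 1.17.1 and matplotlib 3.10.9 were used.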

Additional observations from a re-analysis of the deposited data

Results flagged for a closer look

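*Cdh1* differed between the sorts in opposite directions at the 2 stages. Its log2 ratio of Lgr5-GFP+ to bulk cells was 4.50 at E10.5 (18.1 against 0.798 RPM) and -2.63 at E13.5 (0.586 against 3.63 RPM). Each sort and stage was 1 sample, so the difference was not tested. At E13.5, 1 bulk cell with 569 reads held 88.5% of the bulk reads, and 0 of 80 Lgr5-GFP+ cells were positive.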

How the results depend on the processing

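The share of co-expressing cells was higher in E10.5 Lgr5-GFP+ than in E10.5 bulk cells under each alternative, but its size followed the definition. With at least 1 read as the limit it was 31.5% (bulk) and 54.03% (Lgr5-GFP+) at E10.5, 5.66% and 21.3% at E13.5, and 47.01% and 22.4% in cells with and without *Afp*. With more than 100 reads it was 17.5% in E10.5 Lgr5-GFP+ and 0% in E13.5 Lgr5-GFP+ cells, and 15.9% with and 6.78% without *Afp*. With at least 2 members it was 20.2% in E10.5 bulk and 45.97% in E10.5 Lgr5-GFP+ cells, 66.7% with and 16.7% without *Afp*. With at least 4 members it was 4.93%, 13.7% and, in E13.5 Lgr5-GFP+ cells, 0%, and 12.1% with and 5.28% without *Afp*. With at least 3 of the 8 members other than *Krt8* and *Krt18* it was 1.97% in E10.5 bulk and 12.3% in E10.5 Lgr5-GFP+ cells, and 6.06% with and 4.60% without *Afp*. In pools 3, 4 and 5 alone, chosen after seeing the data, it was 13.3% and 44.5% in the E10.5 sorts, and 51.7% with and 16.1% without *Afp*. Within E10.5 cells it was 15.7% without *Afp*. Leaving out 1 pool at a time gave 27.3% to 53.1% with *Afp* (highest without pool 2) and 0% to 1.89% in E13.5 Lgr5-GFP+ cells. With *Afp* at 1 read or more, 6 members were 2-fold higher and 0 lower, and leaving out pools gave 2 to 4 higher and 2 to 5 lower. The shares of all genes under these settings were not computed. Ratios to cells without *Afp* changed sign with *Afp* at 1 read or more for *Krt19* (log2 0.76), *Krt7* (0.93), *Cldn3* (1.82), *Cldn4* (2.10) and *Spp1* (6.54), after thinning for *Sox9* (0.20) and *Spp1* (0.0387), and without pool 3 for *Cldn4* (0.53, -6.75 to 0.53 over left-out pools) and *Cdh1* (-0.41), whose ratio was also below 0 with more than 100 reads (-0.17). The cause was not tested. In the junction set, mesenchyme-list cells were 40% when 1 surface or junction gene was enough, 0% with more than 100 reads and 0% to 8.33% over left-out pools. Cells with 3 other epithelial genes were 100% when 3 such genes were asked for and with more than 100 reads, and 88.9% to 100% over left-out pools. In the keratin set, mesenchyme-list cells were 81.5% to 96.3% over left-out pools, and cells with 3 other epithelial genes were 17.4% with more than 100 reads. These set alternatives were chosen after seeing the data. No paired analysis was possible because the results come from no test and replicate numbers only name cells; values within pools stand in the report. Cells of the rare members number 15 to 47, which limits their shares.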

Other observations

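The single co-expressing cell of E13.5, an Lgr5-GFP+ cell of pool 4, was positive for *Cldn3*, *Cldn4* and *Sox9* (29 reads), while *Epcam* and *Cdh1* were at 0. It was positive for 0 of the 26 other epithelial genes and was the only junction cell with fewer than 3.

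The 3 keratin cells with the most *Sox9* reads (3726, 3657 and 2600) had 9, 2 and 0 positive mesothelium genes and 7, 1 and 8 positive mesenchyme genes. One of them, with 3657 *Sox9* reads, was positive for *Cldn3*.

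Of the 66 cells with more than 10 *Afp* reads, 10 had no positive member, and 9 of those 10 had at least 3 positive hepatoblast genes. In 54 of the 66, *Krt8* or *Krt18* was positive.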
